A study of Mus musculus with 12 samples.

Results

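Gene expression in the 2 middle bins of Sox2 reporter brightness, MedLow and HiMed, was compared with that in the 2 outer bins, Low and High. All cells came from the circumvallate papilla epithelium of adult Sox2GFP mice aged 11 to 12 weeks. The circumvallate is the single large papilla of the posterior tongue that carries taste buds, and the green fluorescent protein (GFP) of these mice reports expression of Sox2, a transcription factor of taste progenitors. Cells were sorted by GFP brightness into 4 bins (MedLow, HiMed, Low and High) of 3 libraries each, so that 6 middle and 6 outer libraries make up all 12 of the series. Every library carries the same genotype, GFP-negative cells were thrown away, and each replicate pools 7 to 13 mice. The labels give no treatment, sex or sorting day. The bins cut a continuous brightness scale, and the contrast sets the mean of the middle bins against the mean of both ends.

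Stratified epithelium of the tongue is renewed by basal cells, which express keratins 5 and 14 and the factor p63. Daughter cells leave the basal layer and make suprabasal keratins, desmosomal cadherins, crosslinked envelope proteins and barrier lipids. Other daughters enter taste buds, whose cells use simple keratins such as keratin 8. Wnt and Hedgehog signals act on the progenitors. Axin2, Lef1 and Rnf43 are widely used readouts of Wnt signalling, and Gli1 and Ptch1 are readouts of Hedgehog signalling.

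Libraries held 25.7 to 55.6 M counts. In a principal component analysis of 1000 variable genes, the first component (53.9% of the variance) ordered the libraries by brightness. Scores on it rose from Low through MedLow and HiMed to High, with no overlap between bins. The second component (14.7% of the variance) set the middle libraries, at -45.7 to -17.5, apart from the outer ones, at 21.5 to 37.5. HiMed replicate 1 stood apart from the other HiMed libraries. Its score on the third component was 51.3, while the other 11 libraries lay between -18.8 and 13.1, and it had lower levels of many keratinocyte genes than HiMed replicates 2 and 3. Some results are therefore also given without it. The labels do not say that the replicates were separate cultures or animals beyond the pools, so p-values measure the spread between these pools. In these bulk libraries, fewer cells of a type and less RNA per cell cannot be told apart.

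The sort itself was visible in the reporter. Levels of single genes are given in CPM, the count of a gene relative to its library's total after TMM scaling (trimmed mean of M values), and ± stands between the mean and the SD of a bin (n = 3 libraries). Transcripts of eGFP stood at 136, 145 and 154 CPM in MedLow and 255, 224 and 259 CPM in HiMed, against 91.1, 80.2 and 81.4 CPM in Low and 524, 536 and 555 CPM in High. Sox2 stood at 97.1, 99.3 and 97.4 CPM in MedLow and 168, 173 and 173 CPM in HiMed, against 71.1, 76.1 and 63.8 CPM in Low and 378, 358 and 382 CPM in High. Both were ordered by brightness with no overlap between bins. The middle over outer log2 fold change was -0.17 for eGFP (SE 0.058, adjusted p = 0.0576) and -0.32 for Sox2 (SE 0.052, adjusted p = 7.73e-04). The call of eGFP depended on the settings. Its adjusted p was past the threshold with a replicate block (0.0427), scaling by library size alone (0.0399), a filter at 1 CPM (0.0459), DESeq2 (0.0175) and limma on log2(TPM + 1) (0.0180) or log2(TPM + 0.1) (0.0201). A gene that follows brightness with unequal steps between bins can be called by the contrast of means. Calls rest on the quasi-likelihood test of edgeR at an adjusted p below 0.05, where the Benjamini-Hochberg method was applied over 17432 genes.

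Of the 17432 genes, 2922 (16.8%) were called. In all, 1604 (9.2%) were called higher and 1318 (7.56%) were called lower in the middle bins. The change was 2-fold or more in 423 genes that rose (2.43% of the genes tested) and in 461 that fell (2.64%). On log2(TPM + 1) with limma the split was 814 higher and 1388 lower, and on log2(TPM + 0.1) it was 823 higher and 1269 lower. Against the outer bins, HiMed alone had 1219 genes called higher (6.99%) and 772 lower (4.43%), and MedLow alone had 1856 (10.6%) and 1513 (8.68%). The median log2 fold change of the genes tested was 0.01 in counts and -0.05 on log2(TPM + 1). Both middle bins lay above both outer bins in 711 of the genes called higher (44.3%), and both lay below in 605 of those called lower (45.9%). Bin levels instead followed brightness throughout in some called genes. Of those called higher, 202 fell and 87 rose with brightness, and of those called lower, 158 rose and 12 fell.

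**Figure D1:**
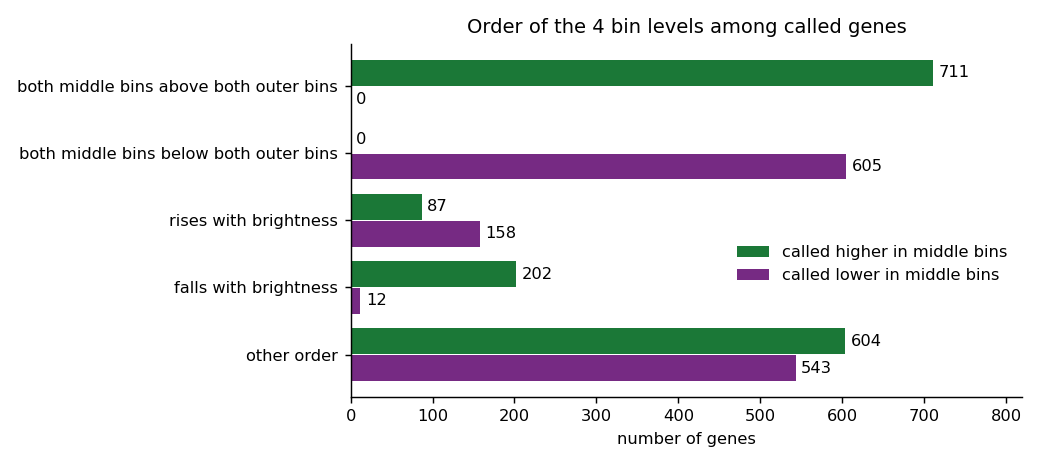
Number of called genes (horizontal axis) by the order of their 4 bin levels (vertical axis), for genes called higher (green) and lower (purple) in the middle bins. Of the genes called higher, 711 had both middle bins above both outer bins, and of those called lower, 605 had both below.

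A stricter set was formed from the 4 pairwise tests of a middle against an outer bin, HiMed and MedLow each against High and Low. Genes called in the same direction in all 4 tests numbered 98 above the outer bins (0.562% of those tested) and 56 below them (0.321%). They are called clear of both outer bins. The 6 middle libraries lay above the 6 outer ones in 84 of the 98 genes, and below them in all 56 of the others. The clear genes were selected on these same libraries, so this separation adds no support of its own. Over the genes tested, 197 (1.13%) had every middle library above every outer library, and 196 (1.12%) had every one below. HiMed and MedLow differed from each other in 3 of the 98 genes and 10 of the 56, while High and Low differed in 35 and 23 of them. Over the genes tested, 7.38% were called higher and 6.12% lower in HiMed than in MedLow. In High over Low the shares were 20.1% higher and 21.2% lower. MedLow against Low gave the fewest calls of the 4 tests, 711 higher (4.08%) and 440 lower (2.52%). Without HiMed replicate 1, 134 genes were clear above and 63 below, and the lowest counts were 57 above without MedLow replicate 3, 63 without MedLow replicate 1, 64 without Low replicate 1 and 38 below without MedLow replicate 1 or 3.

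**Figure D2:**
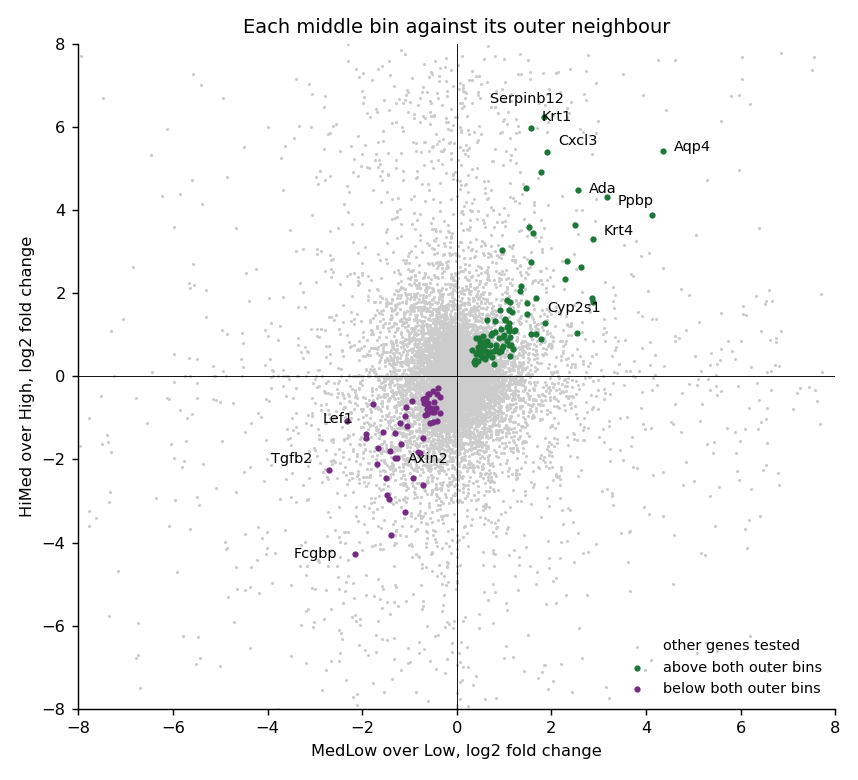
Log2 fold change of MedLow over Low (horizontal axis) against that of HiMed over High (vertical axis) for each gene tested, with the 98 genes clear above both outer bins in green and the 56 clear below in purple. Another 86 genes lie outside the axes, which end at 8.

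Suprabasal keratins were among the genes with large rises in the middle bins. Krt1 and Krt4 encode keratins that replace the basal pair once a cell leaves the basal layer. Krt4 stood at 10134, 8576 and 9712 CPM in MedLow and 3639.8, 10727 and 8259.8 CPM in HiMed, against 1439, 1160.4 and 1275 CPM in Low and 665, 941 and 681 CPM in High. The log2 fold change was 3.09 (SE 0.21, adjusted p = 1.32e-06), and every middle library exceeded every outer one. Krt1 stood at 134, 139.8 and 171 CPM in MedLow and 69.04, 181 and 136 CPM in HiMed, against 52.5, 46.6 and 50.5 CPM in Low and 0.7203, 4.12 and 1.12 CPM in High. High was almost without Krt1, Low held intermediate levels, and HiMed replicate 1 was the lowest of the middle libraries. The log2 fold change of Krt1 was 3.78 (SE 0.32, adjusted p = 5.58e-06). Krt13, the partner of Krt4, averaged 14483 ± 726 CPM in MedLow and 7851 ± 4092 CPM in HiMed, against 5692 ± 498 CPM in Low and 683 ± 195 CPM in High. It was called higher (2.44, SE 0.23) but was not clear of Low in every test, and HiMed replicate 1 fell below the Low libraries.

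Of 21 suprabasal keratinocyte genes tested, 15 were called higher in the middle bins, none was called lower, and 4 were clear. Without HiMed replicate 1, 17 were called higher. The median log2 fold change of the 21 was 0.91, against 0.01 over the genes tested, of which 9.2% were called higher and 7.56% lower. Krtdap, a secreted peptide of differentiating keratinocytes, had 522, 711 and 698 CPM in MedLow and 538, 846 and 723 CPM in HiMed, against 162, 163 and 207 CPM in Low and 279, 380.2 and 208 CPM in High, a log2 fold change of 1.57 (SE 0.15). Calml3 (0.91) and Calm4 (1.36), calmodulin-like proteins of stratified epithelia, were clear as well. Krt10, the partner of Krt1, was called higher (1.602, SE 0.33, adjusted p = 0.00392) without being clear.

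Some of the later differentiation genes were called higher, and none was clear. Of 35 cornified envelope genes, 14 were called higher, 21 were not called and none was called lower or clear, with a median of 1.19. Over all genes tested, 9.2% were called higher and 7.56% lower. On log2(TPM + 1) the median was 0.50 and 2 were called lower, and the median was 1.82 with MedLow alone and 0.86 with HiMed alone. With a replicate block 20 were called higher, and 18 were without HiMed replicate 1. The summed level of the 35 genes did not follow the median. It was 5303 to 9021 CPM in MedLow and 3558 to 6119 CPM in HiMed, against 4345 to 7412 CPM in Low and 6919 to 8979 CPM in High. In the sum, every HiMed library lay below every High library. Casp14, a protease of terminal differentiation, averaged 18.9 ± 1.04 CPM in MedLow and 7.802 ± 5.87 CPM in HiMed, against 10.8 ± 1.85 CPM in Low and 0.167 ± 0.169 CPM in High, with a log2 fold change of 3.14. Lor, the envelope protein loricrin, averaged 146 ± 101 CPM in MedLow and 153 ± 134 CPM in HiMed, against 71.7 ± 62.2 CPM in Low and 11.5 ± 8.48 CPM in High (2.38, adjusted p = 0.0148), with wide spread within bins. Of 13 desmosome genes, 8 were called higher and 2 lower (median 0.30). Dsc1 (2.77) and Dsg1a (2.02), suprabasal cadherins, were among those higher, and Dsg2 (-0.83) and Pkp2 (-1.77), which are used in simple epithelia, were the pair called lower.

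Protease inhibitors and proteases were called higher more often than lower, while 9.2% of all genes tested were called higher and 7.56% lower. Of 16 clade B serpins, 7 were called higher and none lower (median 0.37). Serpinb12 was clear and stood at 124, 161 and 168 CPM in MedLow and 51.9, 199.6 and 158 CPM in HiMed, against 22.8, 45.3 and 57.8 CPM in Low and 0.7203, 2.23 and 2.37 CPM in High. Its log2 fold change was 4.05 (SE 0.36, adjusted p = 6.81e-06). Serpinb3a was called higher (4.59) but overlapped with Low, and reads of the near-identical Serpinb3 genes may be split between them. Of 22 kallikreins and epidermal proteases, 11 were called higher and 2 lower (median 0.75). Their summed level was 2412 to 2890 CPM in MedLow and 2914 to 4011 CPM in HiMed. It was 1473 to 1484 CPM in Low and 3104 to 3613 CPM in High, so every High library lay above every MedLow library. Klk8, a secreted serine protease, had 28.8, 33.04 and 36.8 CPM in MedLow and 16.5, 43.3 and 42.2 CPM in HiMed, against 13.8, 13.8 and 11.2 CPM in Low and 6.24, 8.69 and 7.55 CPM in High and was clear (1.76, SE 0.20), as was the membrane protease Tmprss11a (1.07). Tmprss11b and Tmprss11g rose by 1.59 and 1.87, although High was as high as HiMed for both. Of 30 transcription factors of keratinocyte differentiation, 13 were called higher and 2 lower (median 0.30), with Cebpb (0.74) among those higher and Sox21 (-0.58) among those lower. None of these factors was clear.

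Genes of barrier lipids and of cholesterol synthesis were called higher more often than lower, in numbers that depended on the settings. Of 29 barrier lipid genes, 11 were called higher and 1 lower (median 0.43), against 9.2% and 7.56% of all genes tested. Aloxe3, a lipoxygenase of the epidermal barrier, averaged 48.5 ± 3.36 CPM in MedLow and 40.3 ± 11.96 CPM in HiMed, against 24.96 ± 3.72 CPM in Low and 4.87 ± 1.199 CPM in High and was clear (2.00, SE 0.16, adjusted p = 2.68e-06). Dgat2, which makes triglycerides, was clear with a log2 fold change of 0.80. Without HiMed replicate 1, 18 of the 29 were called higher, and on log2(TPM + 1) 7 were. Of 22 genes of cholesterol synthesis, 13 were called higher and none lower (median 0.25). Msmo1, a sterol methyl oxidase, averaged 82.5 ± 6.02 CPM in MedLow and 88.4 ± 10.4 CPM in HiMed, against 43.9 ± 2.75 CPM in Low and 82.9 ± 0.467 CPM in High and was called higher (0.50, SE 0.066), as was Idi1 (0.50), an isomerase of isoprenoid precursors. The count for cholesterol synthesis depended on single libraries. It was 5 without HiMed replicate 2, 6 without High replicate 1, 7 without HiMed replicate 3 or MedLow replicate 3, and 8 without High replicate 3, MedLow replicate 2 or Low replicate 3. It was 16 without HiMed replicate 1 and 3 on either TPM scale.

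Several enzymes of detoxification and iron handling had close levels in the middle bins and lower levels in both outer bins. Cyp2s1, a cytochrome P450, stood at 324, 331 and 317 CPM in MedLow and 252, 395 and 284 CPM in HiMed, against 101, 110.0 and 91.3 CPM in Low and 101, 94.98 and 56.01 CPM in High. Its log2 fold change was 1.79 (SE 0.14, adjusted p = 2.90e-06), with no overlap. Steap4, a metalloreductase that reduces iron and copper, stood at 98.6, 79.7 and 99.5 CPM in MedLow and 110.2, 108 and 103 CPM in HiMed, against 33.9, 22.6 and 37.1 CPM in Low and 19.6, 17.7 and 10.7 CPM in High (2.15, SE 0.15). Of 31 genes for xenobiotic and aldehyde enzymes, 16 were called higher, 2 lower and 2 clear (median 0.46). The shares over all genes tested were 9.2% higher and 7.56% lower. The summed level of the 31 was 5705 to 5944 CPM in MedLow and 6870 to 8555 CPM in HiMed. It was 3169 to 3285 CPM in Low and 7039 to 8446 CPM in High. In the sum, every High library lay above every MedLow library. The 2 clear members were Crabp2 (1.79), which carries retinoic acid, and Gsta3 (0.74), a glutathione transferase. Aldh1a1, which makes retinoic acid, was the member called lower by the most (-2.86), with 2.33 ± 1.64 CPM in MedLow and 11.5 ± 4.85 CPM in HiMed, against 6.81 ± 2.34 CPM in Low and 206 ± 71.96 CPM in High.

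Other clear genes of this kind were chosen after their values were seen. Fth1, the ferritin heavy chain that stores iron, averaged 1157 ± 81.5 CPM in MedLow and 1044 ± 24.2 CPM in HiMed, against 748 ± 60.1 CPM in Low and 407 ± 24.6 CPM in High (0.99, SE 0.058, adjusted p = 5.44e-07). Mgst1, a membrane-bound glutathione transferase, averaged 40.3 ± 1.64 CPM in MedLow and 38.003 ± 4.83 CPM in HiMed, against 18.8 ± 1.22 CPM in Low and 17.9 ± 1.94 CPM in High (1.09, SE 0.085). Pir, an iron-binding nuclear protein, stood at 115, 107 and 109 CPM in MedLow and 110.3, 138 and 118 CPM in HiMed, against 54.7, 46.9 and 52.1 CPM in Low and 49.3, 64.3 and 35.7 CPM in High (1.20, SE 0.12). Ugt1a6a, a glucuronosyltransferase whose gene shares exons with its neighbours, rose by 1.12. Samhd1, a nucleotide hydrolase, rose by 1.04. In each of these 5 genes the 6 middle libraries exceeded the 6 outer ones.

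The windows upstream of Pir and Mgst1 are shown because both genes are clear, and each holds a match to the core of the antioxidant response element, TGACNNNGC, searched on both strands. The windows are the 250 bases before the annotated start in RefSeq (GRCm38.p6), a build other than the one the authors name, at chrX:164269181-164269430 (plus strand) and chr6:138140277-138140526 (plus strand). Mgst1 has 2 annotated windows, of which the one with the match is shown. Capitals mark the match, which lies on the opposite strand in both and, in Pir, overlaps a match to the AP-1 motif TGANTCA.
Pir: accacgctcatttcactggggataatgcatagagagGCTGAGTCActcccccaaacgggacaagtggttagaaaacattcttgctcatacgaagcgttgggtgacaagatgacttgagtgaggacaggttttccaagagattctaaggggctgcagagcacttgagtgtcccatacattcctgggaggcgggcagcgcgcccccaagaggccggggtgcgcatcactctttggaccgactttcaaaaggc
Mgst1: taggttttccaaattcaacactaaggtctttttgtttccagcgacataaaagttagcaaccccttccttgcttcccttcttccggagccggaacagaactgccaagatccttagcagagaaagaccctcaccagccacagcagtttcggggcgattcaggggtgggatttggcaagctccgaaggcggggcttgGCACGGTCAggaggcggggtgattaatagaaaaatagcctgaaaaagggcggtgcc
The element occurred in 11.6% of the windows of genes clear above (8 of 69 with a window), in 6.67% of those clear below (3 of 45) and in 11.5% of all symbols with a window, so its share among the genes clear above was near that of all genes.

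The remaining genes with the largest changes did not fall into one class. Aqp4, a water channel, showed the largest fold change of the clear genes that also met the level minimum, at 11.3, 10.9 and 15.03 CPM in MedLow and 10.7, 14.9 and 14.1 CPM in HiMed, against 0.4002, 0.484 and 0.908 CPM in Low and 0, 0.8704 and 0 CPM in High. Every outer library was below 1 CPM. The log2 fold change was 4.90 (SE 0.64, adjusted p = 1.61e-04), and 2 of the 3 High libraries held no counts of it. The fold was 8.22 without High replicate 2 and 2.21 on log2(TPM + 1), and no setting that gave a value lost the call. Ada, adenosine deaminase, stood at 149, 124 and 161 CPM in MedLow and 67.5, 252 and 279 CPM in HiMed, against 21.6, 27.6 and 24.2 CPM in Low and 8.69, 8.18 and 9.72 CPM in High (3.53, SE 0.27). Tuba8, an alpha tubulin, rose by 3.001, Rgs4, a regulator of G protein signalling, by 2.57, and Unc5a, a netrin receptor, by 1.69. Ces1h, a carboxylesterase, rose by 2.56, and its neighbour Ces1g by 2.31, but the copies of this family are alike and reads may be shared. Cldn2, a pore-forming claudin, averaged 16.3 ± 1.86 CPM in MedLow and 12.1 ± 2.74 CPM in HiMed, against 5.36 ± 0.807 CPM in Low and 1.11 ± 0.139 CPM in High (2.53), and Cldn1, a sealing claudin chosen after its values were seen, averaged 101 ± 8.82 CPM in MedLow and 53.9 ± 10.1 CPM in HiMed, against 36.1 ± 4.68 CPM in Low and 19.03 ± 1.88 CPM in High (1.49). Cldn1 was also 1 of the 3 clear higher genes in which HiMed and MedLow differed (HiMed over MedLow -0.90, adjusted p = 7.43e-04).

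**Figure D3:**
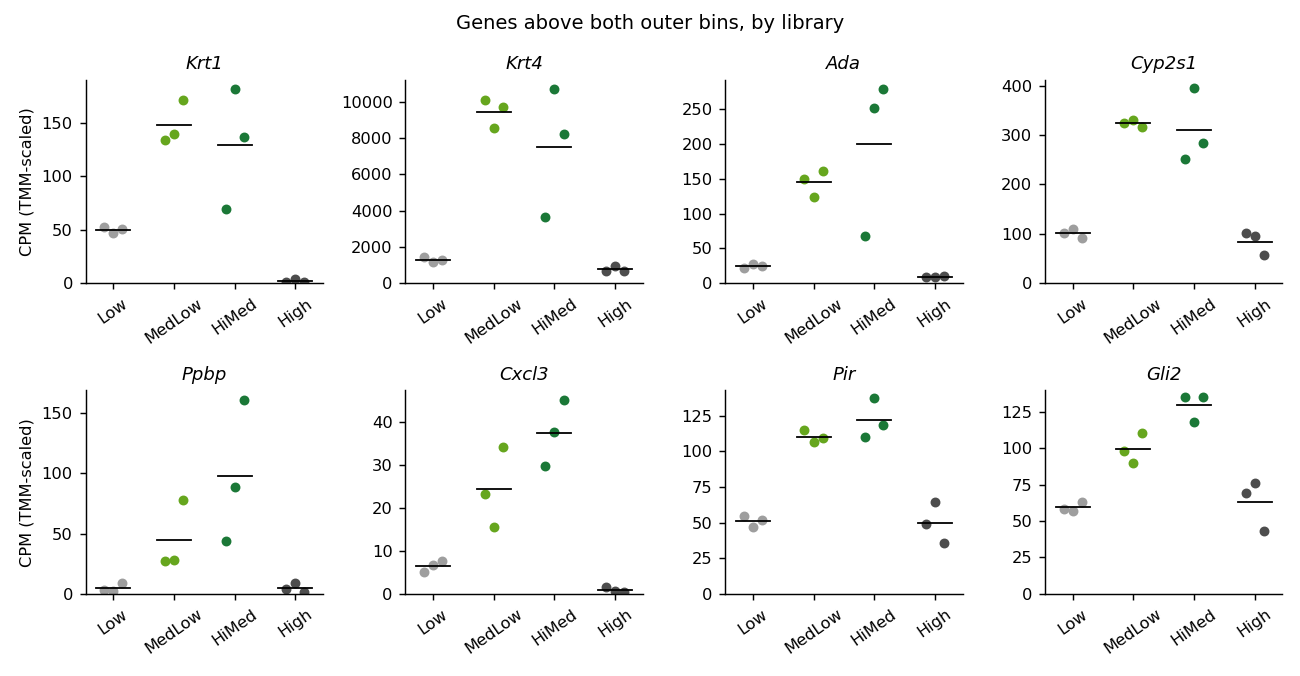
CPM (vertical axes, from 0) in each library for 8 genes clear above both outer bins, with bins on the horizontal axis in order of brightness, 3 points a bin for the libraries and a line at their mean. The 6 middle libraries of every gene shown lie above its 6 outer libraries, and HiMed replicate 1 is the lowest middle library for Krt1, Krt4 and Ada.

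Neutrophil-attracting chemokines were higher in the middle bins. Cxcl3 stood at 23.1, 15.6 and 34.1 CPM in MedLow and 29.6, 37.7 and 44.998 CPM in HiMed, against 5.11, 6.697 and 7.63 CPM in Low and 1.49, 0.743 and 0.458 CPM in High, a log2 fold change of 3.65 (SE 0.26, adjusted p = 1.79e-06). Ppbp, a chemokine for the same receptor, stood at 27.2, 28.2 and 78.01 CPM in MedLow and 43.97, 88.6 and 161 CPM in HiMed, against 3.296, 2.54 and 8.64 CPM in Low and 3.96, 8.81 and 1.93 CPM in High (3.74, SE 0.47, adjusted p = 1.10e-04). Both were clear, with no overlap between middle and outer libraries, and Ppbp varied several-fold within each bin. Cxcl5, another ligand of that receptor, averaged 49.7 ± 13.6 CPM in MedLow and 66.5 ± 16.7 CPM in HiMed, against 29.3 ± 11.2 CPM in Low and 1.84 ± 0.5996 CPM in High and was called higher (2.97) without being clear of Low. Of 34 epithelial cytokine and antimicrobial genes, 16 were called higher and 2 lower (median 0.78), against 9.2% and 7.56% of all genes tested. The summed level of the 34 was highest in High. It was 1440 to 1692 CPM in MedLow and 1790 to 2373 CPM in HiMed, against 1270 to 1449 CPM in Low and 2745 to 3586 CPM in High. Il1rn, the antagonist of the interleukin 1 receptor, was clear (0.96). Slpi, a secreted inhibitor of neutrophil elastase, averaged 81.4 ± 19.8 CPM in MedLow and 51.3 ± 33.8 CPM in HiMed, against 46.4 ± 10.7 CPM in Low and 0.5605 ± 0.707 CPM in High (3.65). Il33, an alarmin, averaged 149 ± 32.8 CPM in MedLow and 539.9 ± 35.1 CPM in HiMed, against 27.5 ± 6.91 CPM in Low and 437 ± 85.8 CPM in High (1.37), with Low far below the other bins. Cxcl14, a chemokine of epithelia, was called lower (-1.37), with 42.5 ± 5.36 CPM in MedLow and 104 ± 16.6 CPM in HiMed, against 20.8 ± 5.06 CPM in Low and 1421 ± 501 CPM in High. The summed level of the 6 leukocyte genes tested was 7.35 to 17.2 CPM in MedLow and 28.4 to 62.8 CPM in HiMed, against 31.6 to 48.9 CPM in Low and 102 to 308 CPM in High libraries. Most of this sum was Lyz2, a lysozyme of myeloid cells, which averaged 10.98 ± 4.45 CPM in MedLow and 35.9 ± 19.6 CPM in HiMed, against 32.7 ± 8.49 CPM in Low and 172 ± 113 CPM in High and was the member called lower (-1.91). Others were near 0, with Ptprc, the pan-leukocyte marker, below 0.3 CPM in every bin mean and C1qa at 0 in MedLow, HiMed and High.

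The window upstream of Cxcl3, chr5:90785851-90786100 (plus strand, RefSeq GRCm38.p6), is shown as the one with an NF-kB motif among the chemokines above. Capitals mark the match to that motif, searched on both strands, which starts 73 bases before the annotated start.
Cxcl3: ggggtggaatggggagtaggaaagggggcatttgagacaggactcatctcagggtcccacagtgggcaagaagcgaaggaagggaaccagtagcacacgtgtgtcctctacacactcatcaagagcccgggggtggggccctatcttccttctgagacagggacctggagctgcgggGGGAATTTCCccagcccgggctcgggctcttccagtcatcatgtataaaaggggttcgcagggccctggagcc
The motif was present in 3 of the 69 windows of genes clear above (4.35%), 2 of the 45 of genes clear below (4.44%) and 1.65% of all symbols with a window. Krtdap is shown for the AP-1 motif TGANTCA, in capitals, which starts 81 bases before its start in the window chr7:30787655-30787904 (plus strand, same build).
Krtdap: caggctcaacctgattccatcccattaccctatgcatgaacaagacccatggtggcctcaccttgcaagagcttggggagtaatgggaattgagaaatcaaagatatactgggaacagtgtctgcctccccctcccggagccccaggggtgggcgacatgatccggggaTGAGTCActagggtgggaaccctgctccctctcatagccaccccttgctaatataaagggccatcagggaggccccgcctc
The AP-1 motif was found in 8 of 69 windows clear above (11.6%), 1 of 45 clear below (2.22%) and 7.82% of all symbols.

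Hedgehog readouts peaked in HiMed. Of 12 Hedgehog genes tested, 7 were called higher and 1 lower in the middle bins (median 0.47), against 9.2% and 7.56% of all genes tested. Gli2, a transcription factor of the pathway, stood at 98.4, 89.8 and 111 CPM in MedLow and 135, 118 and 135 CPM in HiMed, against 58.3, 56.9 and 63.4 CPM in Low and 69.2, 76.1 and 43.5 CPM in High and was the clear one (0.89, SE 0.11, adjusted p = 1.34e-04). Gli1 stood at 180.1, 160.0 and 158 CPM in MedLow and 306, 276 and 254 CPM in HiMed, against 31.6, 32.7 and 33.6 CPM in Low and 159, 168 and 95.3 CPM in High, with a log2 fold change of 1.67 (SE 0.12). MedLow and High overlapped for Gli1, and HiMed exceeded MedLow (log2 fold change 0.75, adjusted p = 0.00716). The receptor Ptch1, which is also a target gene, averaged 243 ± 23.3 CPM in MedLow and 909 ± 43.96 CPM in HiMed, against 68.5 ± 12.3 CPM in Low and 566 ± 123 CPM in High, with a log2 fold change of 1.25. The ligand Shh had its highest levels in High. It stood at 0.206, 0 and 0 CPM in MedLow and 15.1, 2.297 and 9.56 CPM in HiMed, against 0.212, 0 and 0.208 CPM in Low and 135, 123 and 126 CPM in High, and its fold change (-2.51, SE 0.88, adjusted p = 0.0704) missed the threshold. The call of Shh depended on the settings. With a replicate block the adjusted p was 0.0341, and without HiMed replicate 1 or 2 it was 0.0324 and 0.0140. It was also past the threshold with DESeq2 (0.0377), with no filter on low counts (0.00332) and on log2(TPM + 1) (0.00102) or log2(TPM + 0.1) (0.00585). Gas1, a co-receptor, was the member called lower (-1.33), with its lowest levels in HiMed (22.8 ± 7.47 CPM).

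Wnt genes were called in both directions. Of 27 tested, 8 were called higher and 9 lower, against 9.2% and 7.56% of all genes tested. The median log2 fold change of the 27 was 0.00. Among genes clear of both outer bins, Wnt7b was above, while Lef1, Axin2, Rnf43 and Wnt11 were below. Lef1, a transcription factor of the pathway and one of its targets, stood at 37.4, 38.4 and 24.4 CPM in MedLow and 47.1, 24.7 and 33.2 CPM in HiMed, against 123, 140.0 and 114 CPM in Low and 98.8, 79.3 and 94.7 CPM in High. Axin2, a feedback inhibitor, stood at 23.4, 24.9 and 19.6 CPM in MedLow and 21.7, 16.6 and 20.4 CPM in HiMed, against 56.5, 63.2 and 44.5 CPM in Low and 70.2, 69.2 and 88.4 CPM in High. Rnf43, a ubiquitin ligase that removes Frizzled receptors, averaged 57.1 ± 3.42 CPM in MedLow and 54.4 ± 5.75 CPM in HiMed, against 84.7 ± 3.93 CPM in Low and 119 ± 20.4 CPM in High. The log2 fold changes were -1.64 (SE 0.15, adjusted p = 9.21e-06), -1.61 (SE 0.11, adjusted p = 1.32e-06) and -0.85 (SE 0.085), and no middle library of the 3 genes reached an outer one. HiMed and MedLow did not differ in Axin2 (HiMed over MedLow -0.21, adjusted p = 0.444) or Lef1 (0.07, adjusted p = 0.901) beyond the threshold.

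Other feedback genes were called lower by the contrast of means but had another profile. Notum, an enzyme that inactivates Wnt ligands, averaged 4.36 ± 1.18 CPM in MedLow and 46.4 ± 11.3 CPM in HiMed, against 28.1 ± 3.77 CPM in Low and 489 ± 83.04 CPM in High (-3.04, SE 0.15). Nkd1 averaged 3.07 ± 0.614 CPM in MedLow and 12.6 ± 2.81 CPM in HiMed, against 3.42 ± 2.18 CPM in Low and 104 ± 28.96 CPM in High (-1.604). In both, High was far above the other bins, and the HiMed mean exceeded those of MedLow and Low. MedLow lay below Low for Notum and about level with it for Nkd1. With HiMed alone against the outer bins, Nkd1 was not called (-0.58, adjusted p = 0.250). Wif1, a secreted antagonist, was called higher (1.02) with 23.97 ± 4.48 CPM in MedLow and 323 ± 70.99 CPM in HiMed, against 7.29 ± 2.44 CPM in Low and 255 ± 64.6 CPM in High, so HiMed and High were both high. Wnt7b, a ligand of epithelia, stood at 143, 138 and 158 CPM in MedLow and 161, 165 and 159.8 CPM in HiMed, against 59.7, 57.3 and 68.97 CPM in Low and 77.997, 87.8 and 59.4 CPM in High, a log2 fold change of 1.17 (SE 0.087, adjusted p = 2.11e-06). Wnt10a was called higher on the log scale (1.09), but its levels fell with brightness and Low was highest. It averaged 80.96 ± 0.0611 CPM in MedLow and 49.5 ± 4.72 CPM in HiMed, against 108 ± 4.9998 CPM in Low and 8.16 ± 2.21 CPM in High. Wnt11 fell by 1.13 on the log2 scale.

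Modulators of Wnt, BMP and TGF-beta signals outside the lists lay among the genes that fell most. Lrp4, a receptor for secreted inhibitors of Wnt signalling, stood at 61.5, 70.8 and 63.3 CPM in MedLow and 57.3, 47.1 and 62.3 CPM in HiMed, against 202, 211 and 220.3 CPM in Low and 238, 201 and 283 CPM in High, with a log2 fold change of -1.90 (SE 0.091, adjusted p = 1.31e-07). Bambi, a decoy receptor that dampens BMP and TGF-beta signals, stood at 15.7, 19.7 and 12.5 CPM in MedLow and 13.7, 13.02 and 11.8 CPM in HiMed, against 40.3, 47.8 and 48.1 CPM in Low and 70.8, 60.3 and 79.6 CPM in High (-1.98, SE 0.11, adjusted p = 4.72e-07). Tgfb2, a TGF-beta ligand, stood at 3.24, 3.32 and 4.61 CPM in MedLow and 6.45, 2.899 and 6.36 CPM in HiMed, against 19.2, 24.4 and 28.9 CPM in Low and 25.4, 25.9 and 24.3 CPM in High (-2.48, SE 0.19, adjusted p = 2.68e-06). Each of the 3 had middle libraries in a narrow band, all below the outer libraries. Bmp2 (-1.31), Runx2 (-1.22), a transcription factor best known from bone, and Has3 (-1.09), a hyaluronan synthase, were clear below as well and were picked once their values were known. Runx2 was higher in HiMed than in MedLow (HiMed over MedLow 0.82, adjusted p = 4.26e-05), and Bmp2 was lower (-0.92, adjusted p = 0.00105).

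The window upstream of Tgfb2, chr1:186705990-186706239 (minus strand, RefSeq GRCm38.p6), is shown as that of a strongly lowered gene with a Tcf/Lef motif. Capitals mark the match to CTTTGNT, searched on both strands, which starts 67 bases before the annotated start.
Tgfb2: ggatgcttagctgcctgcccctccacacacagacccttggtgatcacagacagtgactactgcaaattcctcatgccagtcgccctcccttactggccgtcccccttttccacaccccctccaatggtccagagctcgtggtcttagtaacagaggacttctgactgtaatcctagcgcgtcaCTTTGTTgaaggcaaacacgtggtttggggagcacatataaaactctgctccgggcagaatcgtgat
The motif was present in 7 of 45 windows clear below (15.6%), 16 of 69 clear above (23.2%) and 18.1% of all symbols. The Axin2 and Lef1 windows hold no match, which says only that these letters are not in them.

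**Figure D4:**
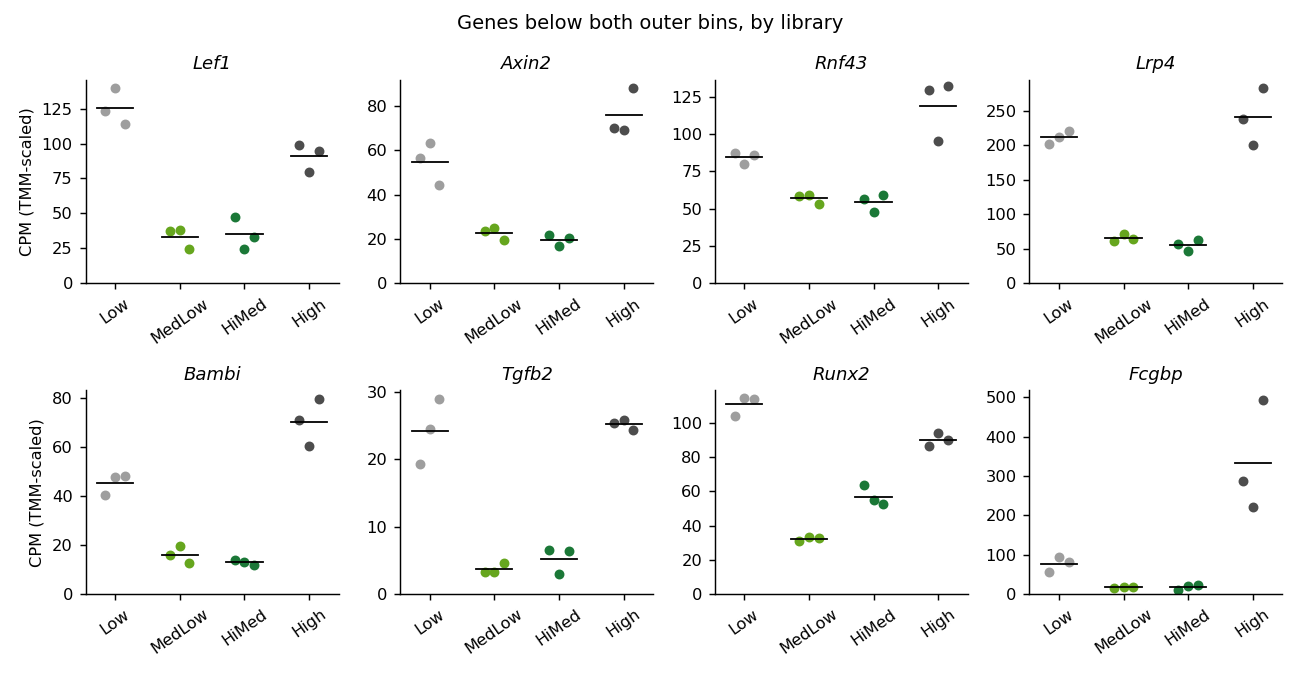
CPM (vertical axes, from 0) in each library for 8 genes clear below both outer bins, with bins on the horizontal axis in order of brightness, 3 points a bin for the libraries and a line at their mean. The middle libraries of every gene shown lie below its outer libraries, and Runx2 rises again in HiMed.

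Matrix and surface genes were also among those clear below. Fcgbp, a secreted mucin-like protein, stood at 14.9, 18.7 and 18.3 CPM in MedLow and 9.299, 19.3 and 22.9 CPM in HiMed, against 56.7, 93.2 and 80.6 CPM in Low and 288, 221 and 493 CPM in High and had the largest fall of the named clear genes (-3.22, SE 0.24, adjusted p = 2.11e-06). Fras1, a basement membrane protein, fell by 1.71, and Col8a1, a collagen chain, by 1.69 on the log2 scale. Pdlim4 (-2.18), Thsd4 (-1.67), Man1c1 (-1.63), a Golgi mannosidase, Lgals12 (-2.60), a galectin, and Tspear (-2.19) were clear below. Wfdc18, which belongs to the von Ebner gland list, had 36.1, 45.3 and 78.04 CPM in MedLow and 78.9, 91.3 and 123 CPM in HiMed, against 167, 335 and 294 CPM in Low and 168, 219 and 226 CPM in High and was clear as well (-1.69, SE 0.21). Hspg2, the basement membrane proteoglycan perlecan, went the other way and was clear above (0.93).

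Basal keratinocyte genes did not move as a block. Of 20 tested, 10 were called higher and 4 lower (median 0.22), against 9.2% and 7.56% of all genes tested. On either TPM scale 5 were called higher and 6 lower (median 0.14), and with HiMed alone 4 higher and 6 lower (median -0.08). Krt5 averaged 9837 ± 486 CPM in MedLow and 7474 ± 150.3 CPM in HiMed, against 13833 ± 128 CPM in Low and 3959 ± 911 CPM in High and was not called (0.21, SE 0.087, adjusted p = 0.123). It was called without High replicate 2 (adjusted p = 0.0125) and with MedLow alone against the outer bins (0.41, adjusted p = 0.0141). Krt14 averaged 3084 ± 344 CPM in MedLow and 1492 ± 190.4 CPM in HiMed, against 7397 ± 321 CPM in Low and 401 ± 68.3 CPM in High, so it fell with brightness, and it was called higher on the log scale (0.32, adjusted p = 0.0255) although the outer libraries have the larger arithmetic mean. The call of Krt14 was lost on either TPM scale and without HiMed replicate 3, MedLow replicate 3 or Low replicate 1 or 2 (adjusted p up to 0.104). Krt15 likewise averaged 4885 ± 462 CPM in MedLow and 659 ± 243 CPM in HiMed, against 6226 ± 475 CPM in Low and 26.4 ± 8.26 CPM in High (2.15). Trp63, the gene of p63, was almost level over MedLow, HiMed and Low and lower in High (914 ± 30.1 CPM in MedLow and 920.0 ± 30.8 CPM in HiMed, against 869 ± 9.25 CPM in Low and 454 ± 114 CPM in High), with a log2 fold change of 0.55. In all, 70 of the 1604 genes called higher had the larger arithmetic mean in the outer libraries, and none of the 1318 called lower had the larger arithmetic mean in the middle ones.

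Progenitor genes were split. Of 12 stem and progenitor genes, 5 were called higher and 4 lower (median -0.01), against 9.2% and 7.56% of all genes tested. Lgr5, a receptor for R-spondins, averaged 51.8 ± 9.98 CPM in MedLow and 239 ± 56.7 CPM in HiMed, against 9.9998 ± 2.75 CPM in Low and 175 ± 18.8 CPM in High (1.403, SE 0.15, adjusted p = 2.48e-05), with Low lowest and HiMed highest. Lrig1, an inhibitor of growth factor receptors, averaged 93.8 ± 10.2 CPM in MedLow and 133 ± 11.8 CPM in HiMed, against 42.6 ± 7.098 CPM in Low and 81.6 ± 7.86 CPM in High (0.92). Lgr6, a relative of Lgr5, averaged 45.9 ± 7.97 CPM in MedLow and 304 ± 53.9 CPM in HiMed, against 67.7 ± 9.91 CPM in Low and 661 ± 18.9 CPM in High and was called lower (-0.84), with MedLow lowest and High highest. Prom1 was lower too (-1.84).

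Genes of the G2 and M phases were highest in MedLow. Of 18 tested, 15 were called higher in the middle bins and none lower (median 0.51), against 9.2% and 7.56% of all genes tested. None of the 18 was clear. Their summed level was 1900 to 2181 CPM in MedLow and 1126 to 1246 CPM in HiMed, against 1365 to 1807 CPM in Low and 606 to 911 CPM in High. Cenpe, a kinesin of the kinetochore, averaged 101 ± 6.71 CPM in MedLow and 56.1 ± 4.05 CPM in HiMed, against 83.5 ± 8.78 CPM in Low and 29.4 ± 2.66 CPM in High (0.60, SE 0.071). Mki67, the gene of the Ki-67 antigen, averaged 553 ± 42.2 CPM in MedLow and 337 ± 9.85 CPM in HiMed, against 528 ± 62.03 CPM in Low and 192 ± 29.8 CPM in High (0.44, SE 0.079), with Low and MedLow overlapping. Ccnb1 (0.63) and Kif20a (0.63) were called higher as well. With HiMed alone against the outer bins none of the 18 was called, and on either TPM scale 9 were. Of 18 S phase genes, 4 were called higher and none lower (median 0.25), with Mcm4, a helicase subunit, at 0.47. On either TPM scale 1 was called, and 2 were called without High replicate 3, HiMed replicate 3, MedLow replicate 2 or Low replicate 1.

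Taste bud keratins were called lower by the contrast of means, and High held their highest levels. Of 12 taste bud keratins and tight junction genes, 10 were called lower and none higher (median -1.12), against 7.56% and 9.2% of all genes tested. Only 1 of the 12 had both middle bins below both outer bins. Their summed level was 788 to 1137 CPM in MedLow and 1579 to 1987 CPM in HiMed. It was 1010 to 1317 CPM in Low and 4312 to 7087 CPM in High. In the sum, every HiMed library lay above every Low library. Krt8, a simple keratin of taste bud cells, stood at 124, 86.1 and 162 CPM in MedLow and 259, 226 and 280.0 CPM in HiMed, against 218, 251 and 309 CPM in Low and 1019.5, 765 and 1469 CPM in High, a log2 fold change of -1.58 (SE 0.17, adjusted p = 3.42e-05). Low overlapped with HiMed, and High stood far above. Krt18, its partner, fell by 1.36, Krt7 by 1.51 and Krt20 by 1.41 on the log2 scale. None of the 12 was clear, and with HiMed alone 3 were called lower (median -0.45). Without HiMed replicate 1, 8 were called lower. Of 13 taste lineage factors, 5 were called lower and 1 higher (median -0.31), Prox1 among those lower (-1.47). The balance turned with HiMed alone, with 4 called higher and 1 lower (median 0.57). Without Low replicate 3 the median was -0.15, and the gene called higher was not called without any other single library except MedLow replicate 2.

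Genes of the taste cell types were described by list, and differences between the lists were not tested. Among all genes tested, 9.2% were called higher and 7.56% lower. Of 5 type I genes, 3 were called lower and none higher (median -2.24). The median was -1.30 without Low replicate 3, -1.08 on log2(TPM + 1) and -0.78 with HiMed alone, and 1 gene was called higher without HiMed replicate 1. Entpd2, an ATP-degrading ectoenzyme of type I cells, averaged 14.9 ± 1.29 CPM in MedLow and 12.2 ± 1.23 CPM in HiMed, against 19.9 ± 3.68 CPM in Low and 205 ± 64.1 CPM in High (-2.24). Of 20 type II genes, 4 were called higher and 1 lower (median 0.48), and 7 were called higher without MedLow replicate 2. The median was 0.29 without Low replicate 2 and 0.20 on log2(TPM + 1), and with MedLow alone 1 was called higher and 2 lower. Plcb2, the phospholipase of sweet, umami and bitter transduction, stood at 169, 56.97 and 142 CPM in MedLow and 288, 238 and 197 CPM in HiMed, against 81.6, 48.05 and 114 CPM in Low and 52.8, 68.3 and 32.5 CPM in High (1.41, SE 0.27, adjusted p = 0.00247). Its libraries overlapped between MedLow, Low and High. Gnb3 (1.19), Tas1r3 (1.15) and Rgs21 (1.54) were called higher, and High was lowest for each. The call of Tas1r3 was lost on log2(TPM + 1) (adjusted p = 0.0683), on log2(TPM + 0.1) (0.0570) and with MedLow alone (0.121), and that of Gnb3 with MedLow alone (0.0794). Trpm5, the channel at the end of that pathway, averaged 54.1 ± 25.1 CPM in MedLow and 55.5 ± 12.1 CPM in HiMed, against 62.9 ± 24.9 CPM in Low and 18.6 ± 4.53 CPM in High and missed the threshold (0.68, SE 0.25, adjusted p = 0.0866), which it passed without MedLow replicate 2 (adjusted p = 0.0133). Of 29 bitter receptors, 3 were called in each direction, at summed levels of 12.1 to 35.1 CPM in middle and 2.28 to 59.5 CPM in outer libraries. None was called higher without MedLow replicate 1 or 3 or Low replicate 1 or 2, 1 was without any other single library except High replicate 2 or 3, and 1 was called lower without High replicate 3. Of 12 type III genes, 1 was called lower, the proton channel Otop1 (-2.10), and none higher. With a replicate block or without High replicate 3, 2 were called higher, with no filter on low counts 3 were, and 1 was without HiMed replicate 1, MedLow replicate 1 or Low replicate 3. Without HiMed replicate 2, 2 were called lower.

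**Figure D5:**
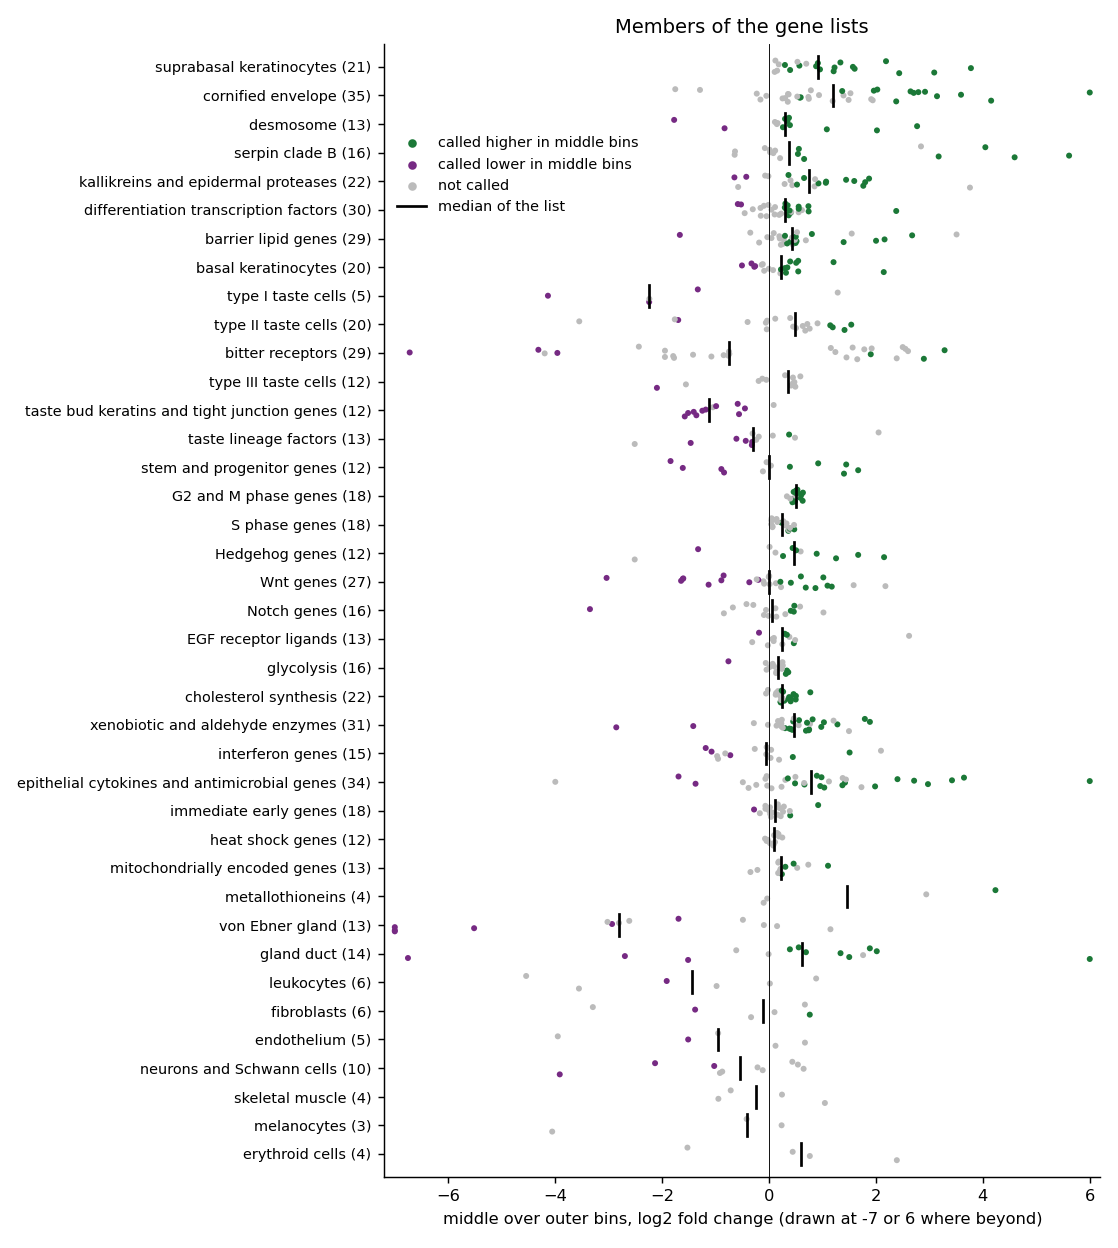
Log2 fold change of middle over outer bins (horizontal axis) for each tested member of 39 gene lists (rows, with the number tested), coloured by call, with a black line at each list's median. Suprabasal, cornified envelope, and cytokine and antimicrobial genes lie mainly to the right, and taste bud keratins and von Ebner gland genes mainly to the left. Members beyond -7 or 6 (3 at each end) are drawn at those limits.

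Markers of some other cell types were lower in the middle bins, where 7.56% of all genes tested were called lower and 9.2% higher. Of 13 von Ebner gland genes, 6 were called lower and none higher (median -2.81). Without High replicate 2 the median was -1.67 and 4 were called lower. Their summed level was 125 to 348 CPM in middle libraries, against 1049 to 3001 CPM in Low and 204 to 395 CPM in High. Lipf, a lipase of this gland, had 0.129, 2.71 and 0.2895 CPM in MedLow and 0, 0 and 0 CPM in HiMed, against 64.3, 433 and 320.1 CPM in Low and 0, 29.3 and 0.219 CPM in High, and Bpifb1 had 0.129, 3.87 and 0.105 CPM in MedLow and 0, 0.547 and 0.145 CPM in HiMed, against 92.8, 596 and 429 CPM in Low and 0, 50.8 and 0.418 CPM in High. Within Low and High the gland genes varied widely between replicates, and High replicate 2 was high for both. Both were called lower, with an adjusted p of 0.00319 for Lipf and 0.00200 for Bpifb1, but without High replicate 2 neither was (adjusted p = 0.153 and 0.122). Of 14 gland duct genes, 8 were called higher and 3 lower (median 0.62). The fibroblast list summed to 49.2 to 200 CPM in middle, 608 to 650 CPM in Low and 13.6 to 23.4 CPM in High libraries, and nearly all of it was Dcn. Of 6 fibroblast genes 1 was called in each direction, of 5 endothelial and 6 leukocyte genes 1 each was called lower, and of 10 neuron and Schwann cell genes 3 were called lower. No call was made among 4 muscle, 3 melanocyte and 4 erythroid genes. The part of these cell types in the genes that were lower in the middle bins was not tested.

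The other lists had medians between -0.05 and 0.25, apart from the metallothioneins (1.45). The counts below stand against 9.2% called higher and 7.56% called lower over all genes tested. Of 16 Notch genes, 3 were called higher and 1 lower, and the ligand Jag1 was clear above (0.46). Of 13 EGF receptor ligands, 3 were called higher and 1 lower, and of 16 glycolysis genes likewise 3 and 1. For glycolysis the count higher was 6 with a replicate block, 8 without HiMed replicate 1 and 5 without High replicate 2. Of 15 interferon genes, 2 were called higher and 3 lower, a count that dropped to 1 lower without any single MedLow library or without HiMed replicate 1 or 2, High replicate 2 or Low replicate 1. Ifitm1, an interferon-induced membrane protein outside that list, was clear above (2.63). Among genes that respond to tissue dissociation, 2 of 18 immediate early genes were called higher and 1 lower, and none of 12 heat shock genes was called. Of 13 mitochondrially encoded genes 4 were called higher (median 0.22), or 7 with a replicate block or without MedLow replicate 2, with summed levels of 26331 to 35517 CPM in middle, 25965 to 29046 CPM in Low and 20842 to 21626 CPM in High libraries. Of 4 metallothioneins 1 was called higher, Mt4 (4.24), which averaged 697 ± 98.2 CPM in MedLow and 276 ± 155 CPM in HiMed, against 538 ± 62.1 CPM in Low and 0.979 ± 0.593 CPM in High. The 2 middle bins differed in this list. With MedLow alone all 4 were called higher (median 2.97), and with HiMed alone 1 was called higher and 2 lower (median 0.007).

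In some called genes the mean log2 levels of the bins were in the order of brightness, with unequal steps between bins. Barx2, a homeobox factor, averaged 209 ± 10.1 CPM in MedLow and 50.9 ± 23.9 CPM in HiMed, against 222 ± 28.8 CPM in Low and 1.78 ± 0.598 CPM in High (2.38), so MedLow was about level with Low and High was almost without it. Irx4 averaged 15.8 ± 2.77 CPM in MedLow and 0.404 ± 0.1403 CPM in HiMed, against 55.1 ± 1.46 CPM in Low and 0 ± 0 CPM in High, and Adamts15 averaged 64.2 ± 11.4 CPM in MedLow and 5.43 ± 2.704 CPM in HiMed, against 77.6 ± 6.72 CPM in Low and 0.109 ± 0.188 CPM in High. High held 0 counts of Irx4 in all 3 libraries, and a floor of 3 counts over the bin is 0.0200 CPM. Both were called higher although Low was highest, and on log2(TPM + 1) the contrast of Irx4 had the opposite sign (-0.66). Among those called lower, Sdk1 averaged 6.68 ± 0.478 CPM in MedLow and 8.03 ± 3.03 CPM in HiMed, against 5.72 ± 1.52 CPM in Low and 138 ± 52.3 CPM in High (-1.92), Srgn averaged 0.497 ± 0.225 CPM in MedLow and 5.16 ± 2.28 CPM in HiMed, against 0.483 ± 0.457 CPM in Low and 79.5 ± 4.35 CPM in High (-2.02), Lrrn2 averaged 1.04 ± 0.246 CPM in MedLow and 1.66 ± 1.281 CPM in HiMed, against 1.05 ± 0.4397 CPM in Low and 23.6 ± 12.9 CPM in High (-1.91) and Abca13 averaged 2.53 ± 1.69 CPM in MedLow and 38.7 ± 17.5 CPM in HiMed, against 1.03 ± 0.658 CPM in Low and 787 ± 378 CPM in High (-1.51). The call of Abca13 was lost without Low replicate 2 or 3 (adjusted p = 0.0550 and 0.159). High exceeded the other bins by far in these genes called lower, while Low and MedLow were level within their SD for Sdk1, Srgn and Lrrn2. The middle bins of a gene in this order lie between the outer bins, so such a gene is not clear by definition.

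Some clear genes lay close together on a chromosome. Of 153 clear genes found in the RefSeq annotation, 7 pairs had at most 2 coding genes between them. How often other genes form such pairs was not counted, so the number cannot be called high or low. Calml3 and Calm4, Ces1g and Ces1h, Pir and Vegfd (1.45), Krt1 and Krt4, and Ppbp and Cxcl3 were all clear above. Tmem184b (-0.81) and Csnk1e (-0.67) were clear below. Wnt11 was clear below and Dgat2 above.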

How the data were processed

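Polyadenylated RNA of 12 libraries was sequenced on a NovaSeq instrument. The submitters' processing notes name Salmon 1.4.0, the build mm39 and DESeq2 1.28.1, without their roles. The authors deposited expected counts, which are not scaled, and TPM, both per gene symbol. The annotation is not given in the sources used here.

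Here the expected counts were rounded and analysed in edgeR 4.0.16 (R 4.3.3). Of 52670 symbols, 17432 passed filterByExpr with a minimum count of 10, and the rest held 0.0340% of counts. After TMM scaling, all 12 libraries entered a quasi-likelihood fit with a term for each bin and none for the replicate. The contrast was the mean of MedLow and HiMed minus the mean of Low and High on the log2 scale. A standard error is the value implied by the F statistic. Limma 3.58.1 on log2(TPM + 1), DESeq2 1.42.0 and other settings were alternatives. The steps were tested on simulated data.

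The comparison and the 39 gene lists were chosen with earlier results of these data known, so they are no independent support. Named genes were the 15 per direction with the largest change among clear genes without overlap and with 10 CPM or more, up to 4 called members of each list and direction, up to 5 per direction that follow brightness, and 12 reference genes. Other named genes, such as Calm4 and Hspg2, were chosen after their values were seen, and only some of them are marked so. Some genes that this rule names are not reported here.

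Mice were pooled for each replicate before sorting, so libraries sharing a number were assumed to come from the same pool. The main fit did not use this assumption, and its SEs and p-values treat the 12 libraries as independent. Only the setting with a replicate block used it. That setting called 1823 genes higher and 1459 lower, with 137 clear above and 76 clear below. Over 9650 genes, deviations from the bin means correlated at 0.0586 to 0.411 in the 18 pairs of the same number (above 0.1 in 15). In the 36 other pairs the range was -0.321 to 0.101. Counting floors cover counting error only.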

Additional observations from a re-analysis of the deposited data

Results flagged for a closer look

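For Wif1 and Lgr6, the 2 middle bins were each called against the mean of the outer bins, in opposite directions. HiMed over MedLow had a log2 fold change of 3.75 for Wif1 and 2.73 for Lgr6 in the test of that difference. For Wif1 the change against the outer bins was -0.86 with MedLow alone, and for Lgr6 it was 0.52 with HiMed alone. Among other named genes the signs also differed between the middle bins, as in Shh, eGFP and Dcn, without a call of both.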

How the results depend on the processing

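Each of the 12 libraries was left out in turn. This gave 1277 to 1789 genes called higher and 1029 to 1379 called lower, 57 to 134 clear above and 38 to 70 clear below, and 78.0 to 92.4% of the calls were kept with no change of sign. With a replicate block 1823 genes were called higher and 1459 lower, 137 clear above and 76 below, and it changed no call other than those of Shh and eGFP among the named genes. DESeq2 gave 88 genes clear below. On log2(TPM + 1) 814 genes were called higher, 50 were clear above and 26 below, and on log2(TPM + 0.1) these were 823, 48 and 27. A model with 2 terms, middle and outer, counts the difference between bins as spread and called 125 higher and 94 lower. HiMed alone against the outer bins called 772 lower.

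For the named genes, the sign turned with the 2-term model in Adamts15 (-0.16), Dcn (-1.80), Irx4 (-1.76), Krt14 (-0.77), Krt15 (-0.17) and Krt5 (-0.039). It turned with HiMed alone in Abca13 (0.46), Dcn (-0.93), Krt14 (-0.21), Lgr6 (0.52), Shh (0.99), Sox2 (0.082) and eGFP (0.21), and with MedLow alone in Wif1 (-0.86). Irx4 turned on log2(TPM + 1) (-0.66), and Dcn, which was not called, turned without High replicate 3 (-0.11) or MedLow replicate 2 (-0.012), in a range of -0.11 to 0.30 over single libraries left out. The cause was not tested.

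On log2(TPM + 1) list medians were smaller for serpins (0.092), proteases (0.37), differentiation factors (0.16), EGF receptor ligands (0.055) and gland duct genes (0.31), and the median of metallothioneins turned (-0.10). With HiMed alone 5 desmosome genes were called higher, 7 differentiation factors and 7 cholesterol genes, and with MedLow alone 6 proteases. Counts of 1 or 2 genes in a direction, as in the Notch, EGF receptor ligand, xenobiotic, immediate early, differentiation factor and fibroblast lists, changed without single libraries.

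Depth limits genes at a few counts, such as bitter receptors, whose folds depend on the prior count.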
